A study of Mus musculus with 10 samples.

Results

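Lysosomal proteases are the peptide-cutting enzymes of the acid compartment in which cells degrade proteins, and 10 genes of this class were followed here in the lactating mouse mammary gland: Ctsa, Ctsb, Ctsc, Ctsd, Ctsh, Ctsk, Ctsl, Ctss, Ctsz and Lgmn. They were taken by gene symbol from a table of 35275 Ensembl genes, and each of the 10 had a row in it. The tested glands came from BALB/c mice, an inbred strain, on day 3 of lactation. In 5 glands 50 µL of lipopolysaccharide (LPS), the endotoxin of Gram-negative bacteria, from E. coli 055: B5 at 0.4 mg/mL had been given through the teat, and in the other 5 the same volume of sterile phosphate-buffered saline (PBS). All were glands of the 4th pair, taken 12 h after LPS, and RNA of each whole gland was sequenced as 1 library. Per the labels, LPS and PBS went into opposite sides of a mouse, so a PBS gland lay in an animal that also carried an LPS gland, and no uninjected gland was analysed here. The labels state n = 9 for the injections and do not say which animals gave the 10 libraries, so a p-value here reflects how far these glands varied, which may in part be technical.

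Cathepsins are made as inactive precursors, are carried to the lysosome by mannose 6-phosphate receptors and are activated there by acid and by cleavage. Cystatins, small proteins that block the active site of cysteine cathepsins, hold in check what leaks out. In the mammary gland these enzymes are best known from involution after weaning, when the transcription factor STAT3 raises cathepsin B and cathepsin L in the milk-secreting epithelium and lysosomes become leaky in dying cells. In immune cells other members of the class trim antigens and their chaperone for display on MHC class II, and cathepsin C activates the serine proteases stored in granules.

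In 7 of the 10 genes the enzyme is a papain-type cysteine protease. The coding stretch around its catalytic cysteine is shown because it is what these otherwise differently expressed genes have in common, with the cysteine codon in capitals and 15 bases on either side, read 5′ to 3′ from the GENCODE M21 transcripts.
Ctsl: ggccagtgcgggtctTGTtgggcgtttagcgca
Ctsb: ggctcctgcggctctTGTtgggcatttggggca
Ctsk: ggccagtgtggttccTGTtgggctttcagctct
Ctss: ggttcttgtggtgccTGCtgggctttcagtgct
Ctsh: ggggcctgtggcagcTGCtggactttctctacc
Ctsz: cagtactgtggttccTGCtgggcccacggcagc
Ctsc: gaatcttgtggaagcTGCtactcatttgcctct
The window of Ctsk shared 26 of 33 bases with that of Ctsl and 25 with that of Ctss, whereas the window of Ctsc shared 14 with that of Ctsl. The codon stood at position 138 of the 334 codons of Ctsl and at position 257 of the 462 codons of Ctsc, whose precursor carries a long extra domain in front of the protease part. Of the other 3 genes, Ctsd encodes an aspartic protease, Ctsa a serine carboxypeptidase and Lgmn legumain, a cysteine protease of another family that cuts after asparagine.

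Per the values of the table, depth was 15734303 to 18869545 counted reads per library. Expression is given as FPKM, a read count scaled for gene length and for the depth of the library, as means ± SD with n = 5 per group. Milk protein genes (caseins, Wap and Lalba) took 27.8 to 39.2% of summed FPKM in LPS glands and 34.1 to 44.0% in PBS glands, which bears on every FPKM value. The luminal keratin genes Krt8 and Krt18 and the basal keratin gene Krt5 were present in every library, and epithelial markers moved with the groups. Krt5 was at 19.8 ± 2.33 FPKM in LPS glands and 12.8 ± 1.77 FPKM in PBS glands and rose with separate groups (log2 change 0.59, limma adjusted p = 0.0163). Krt8 was at 188 ± 34.6 FPKM in LPS glands and 130 ± 14.2 FPKM in PBS glands and rose as well (0.53, limma adjusted p = 0.0445). The groups of Krt8 overlapped. On reads recovered from FPKM it was called by DESeq2 (adjusted p = 0.00698) and not by edgeR (adjusted p = 0.0544). Krt5 and Krt8 were 1 of 5 tested basal and 1 of 6 tested luminal markers. The authors' deposited table lists Krt5, Krt8 and the basal gene Krt14 as higher (log2 fold changes 0.54, 0.45 and 0.37). That table lists the milk protein gene Csn2, another of the luminal markers, as lower (-0.59). Of the 6 luminal markers 3 had a positive change, with a median of -0.13 on the log2 scale. Their summed FPKM was 76720 to 105300 in LPS glands and 114900 to 147200 in PBS glands. The summed FPKM of 5 B cell markers was 0.193 to 17.5 in LPS glands and 0.280 to 38.4 in PBS glands, and LPS replicates 2 and 3 and PBS replicates 2 and 4 were the richest in B and T cell markers.

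Setting LPS against PBS glands asks whether transcripts of these proteases changed 12 h after endotoxin reached the gland. None of the 10 passed the test: by limma, a linear model across 11414 expressed genes with Benjamini-Hochberg adjustment, 0 of 10 were called higher and 0 lower at an adjusted p below 0.05. Over all genes tested, 2.63% were called higher, 0.605% lower and 3.23% in either direction, so 0 of 10 is near the background share. On reads recovered from FPKM, edgeR and DESeq2 also called 0 of the 10, where they called 3.83% and 7.41% of all genes. At an unadjusted p below 0.05, limma had 1 of the 10 (Ctsc), edgeR 2 (Ctsc and Ctsk) and DESeq2 3 (Ctsb, Ctsc and Ctsk), against 16.5%, 17.9% and 18.5% of all genes. With the replicate number added to limma as a block, 1 of the 10 was called (Ctsc), beside 1229 of all genes tested. Whether same-numbered glands came from the same mouse is not stated. None of the 10 was among the 908 genes in the authors' deposited table of changed genes. The log2 change, LPS minus PBS on log2(FPKM + 1), was positive for 6 members and negative for 4, with a median of 0.08 beside 0.05 over all genes tested. That split moved with scaling: it was 5 and 5 with median-of-ratios scaling, 4 and 6 with quantile normalization, and 2 and 8 when FPKM were rescaled to the sum outside milk proteins, which moved the median of all genes to -0.10.

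**Figure D1:**
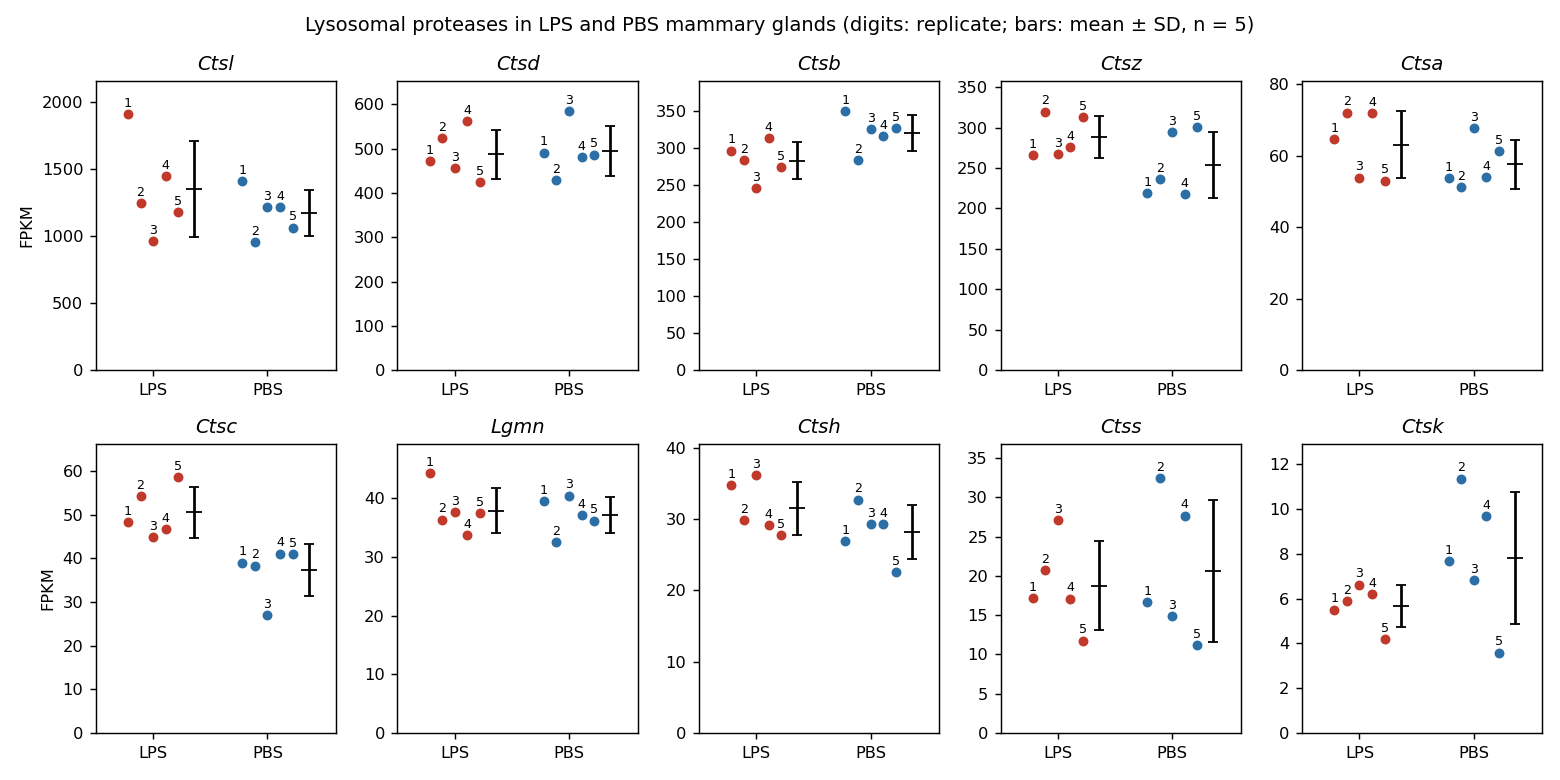
FPKM of the 10 protease genes in each library, LPS glands on the left and PBS glands on the right of each panel, in order of mean level. Points are libraries with their replicate number, and the bar is the mean ± SD of 5 libraries. Ctsc is the gene whose groups do not overlap, at 44.9 to 58.7 FPKM in LPS glands and 27.0 to 41.1 FPKM in PBS glands.

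Cathepsin C, or dipeptidyl peptidase 1, removes dipeptides from the ends of proteins and thereby activates granule serine proteases of neutrophils, mast cells and cytotoxic lymphocytes. Ctsc (ENSMUSG00000030560, chromosome 7, 88278085 to 88310888, plus strand, build mm10) was at 48.3, 54.3, 44.9, 46.7 and 58.7 FPKM in LPS replicates 1 to 5, against 39.1, 38.3, 27.0, 41.1 and 41.0 FPKM in PBS replicates 1 to 5. Every LPS gland was above every PBS gland, which held for 1 of the 10 members and for 3.53% of all genes tested; the opposite, every LPS gland below every PBS gland, held for 0 members and for 1.22% of all genes. The means were 50.6 ± 5.77 FPKM in LPS glands and 37.3 ± 5.90 FPKM in PBS glands, a ratio of 1.36. The log2 change was 0.44 ± 0.12 (SE), with a 95% interval of 0.17 to 0.70 and a limma adjusted p of 0.0790, so it did not pass the threshold after adjustment over all genes. With the replicate number as a block it passed (limma adjusted p = 0.0144), but whether the numbers pair glands is not stated.

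The 2 LPS glands with the most Ctsc were also those with the most transcript of neutrophil receptor genes. Csf3r, the receptor of the granulocyte growth factor G-CSF, had 15.6 FPKM in LPS replicate 2, 15.3 FPKM in LPS replicate 5 and 3.93 to 8.47 FPKM in the remaining LPS glands, against 2.24 to 3.78 FPKM in PBS glands. Cxcr2, a chemokine receptor of neutrophils, had 5.77 FPKM in LPS replicate 2, 6.24 FPKM in LPS replicate 5 and 1.67 to 1.94 FPKM in the remaining LPS glands, against 0.291 to 1.11 FPKM in PBS glands. The summed FPKM of the 7 neutrophil markers was 13.7 to 59.3 in LPS glands and 7.91 to 14.7 in PBS glands; 3 of the 5 tested rose (Csf3r, Cxcr2 and Retnlg, limma adjusted p = 0.0343, 0.0475 and 0.0463), and these calls were lost in 7, 8 and 8 of the 10 fits that left out a library. In LPS replicate 1 Ctsc was at 48.3 FPKM while Csf3r (3.93 FPKM) and Cxcr2 (1.67 FPKM) lay just above the PBS range, and the part of neutrophil transcripts in the level of Ctsc was not tested. Nor was the part of the epithelial genes Krt5 and Krt8, which rose in the same comparison. In whole-gland RNA more cells of a type and more RNA per cell cannot be told apart.

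The serine proteases that cathepsin C activates gave no call. Of 7 listed genes 4 passed the filter on low values (FPKM of at least 1 in at least 5 libraries), 0 rose and 0 fell by limma (unadjusted p below 0.05 for 0 of them). Gzma, granzyme A of cytotoxic lymphocytes, averaged 6.79 ± 4.06 FPKM in LPS glands and 5.35 ± 1.08 FPKM in PBS glands, and Gzmb, granzyme B, 4.04 ± 2.98 FPKM in LPS glands and 2.74 ± 1.03 FPKM in PBS glands. Both were highest in LPS replicate 3, at 13.7 FPKM for Gzma and 9.33 FPKM for Gzmb. The medians in LPS and PBS glands were 5.57 and 5.39 FPKM for Gzma and 2.79 and 2.86 FPKM for Gzmb. Of the 4 tested genes, these 2 had a positive change. The neutrophil granule genes Elane, Prtn3 and Ctsg did not pass the filter; Ctsg was listed at 0 in 9 libraries and at 0.571 FPKM in PBS replicate 4.

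**Figure D2:**
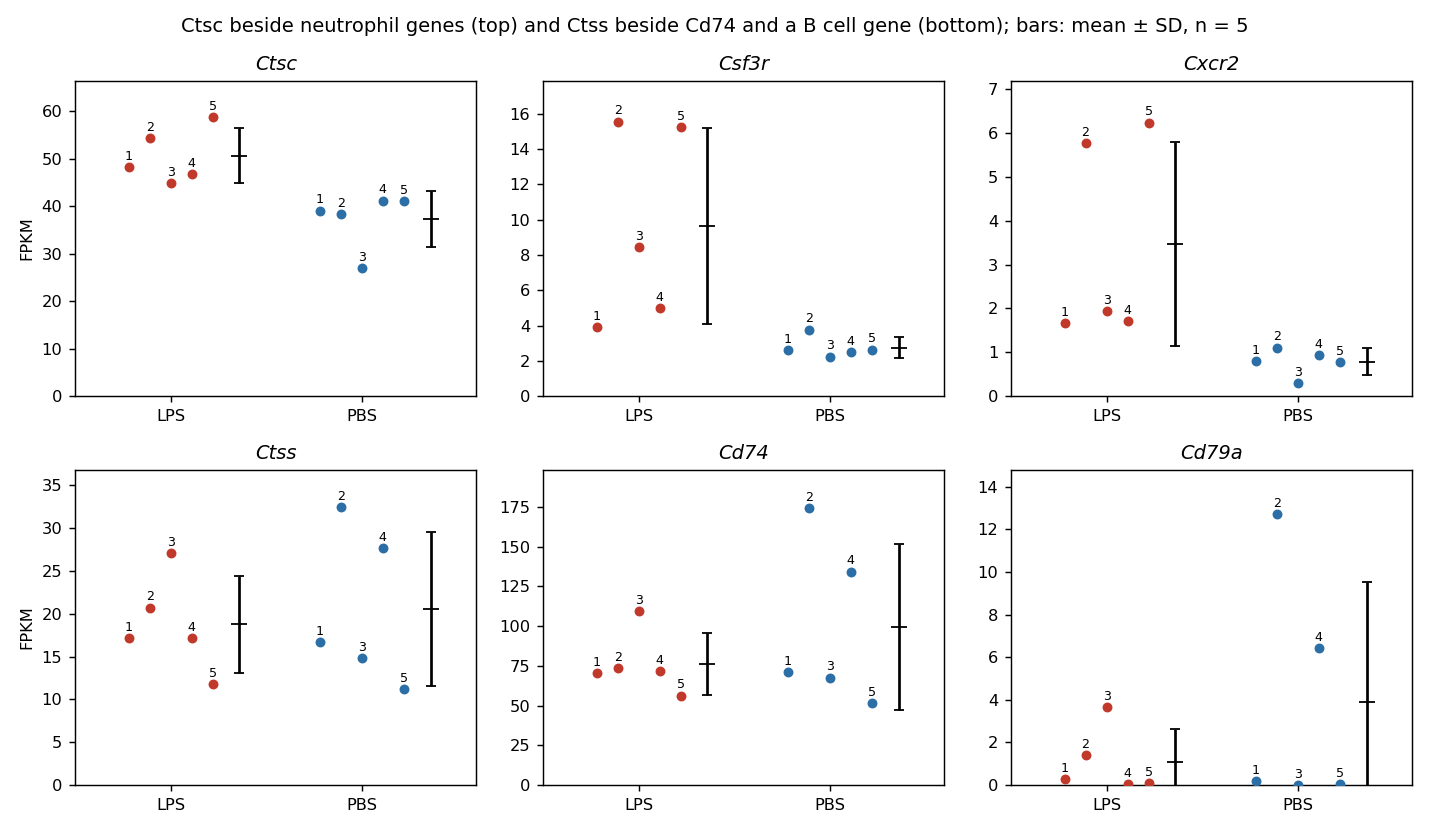
FPKM in each library of Ctsc beside the neutrophil genes Csf3r and Cxcr2 (top) and of Ctss beside the invariant chain gene Cd74 and the B cell gene Cd79a (bottom), LPS on the left and PBS on the right. Digits are replicate numbers, bars are mean ± SD of 5 libraries, and lower bars that pass 0 are cut off there. LPS replicates 2 and 5 are highest in the top row, and PBS replicates 2 and 4 with LPS replicate 3 are highest in the bottom row.

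The general degradative enzymes cathepsins L, B and D were among the 4 most abundant members, with cathepsin Z. Cathepsin L is an endopeptidase of most cells. Ctsl (ENSMUSG00000021477, chromosome 13, 64359337 to 64370890, minus strand) was at 1909.8, 1242, 963, 1445 and 1178 FPKM in LPS replicates 1 to 5, against 1407, 952, 1216, 1214 and 1062 FPKM in PBS replicates 1 to 5. The groups overlapped, and LPS replicate 1 stood above the rest. Ctsl averaged 1347.5 ± 358 FPKM in LPS glands and 1170.1 ± 173 FPKM in PBS glands (log2 change 0.18 ± 0.17, 95% interval -0.20 to 0.55, limma adjusted p = 0.692). Without LPS replicate 1 the log2 change of Ctsl was 0.04, and its sign turned with quantile normalization and with scaling to the sum outside milk proteins.

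Cathepsin B cuts within proteins and also removes dipeptides from their carboxy ends. Ctsb (ENSMUSG00000021939, chromosome 14, 63122462 to 63145923, plus strand) was at 296, 283, 246, 313 and 274 FPKM in LPS replicates 1 to 5, against 349, 283, 325, 316 and 326 FPKM in PBS replicates 1 to 5. Apart from PBS replicate 2, every PBS gland was above every LPS gland. Ctsb averaged 282 ± 25.1 FPKM in LPS glands and 320.0 ± 24.0 FPKM in PBS glands (log2 change -0.18 ± 0.09, 95% interval -0.38 to 0.02, limma adjusted p = 0.363). Its log2 change was negative under each of 22 other ways of processing, from -0.36 to -0.13, and passed the threshold under none of them (adjusted p 0.102 to 0.763).

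Cathepsin D is the main aspartic protease of lysosomes. Ctsd (ENSMUSG00000007891, chromosome 7, 142375911 to 142388038, minus strand) was at 473, 523, 456, 562 and 424 FPKM in LPS replicates 1 to 5, against 491, 429, 585, 481 and 487 FPKM in PBS replicates 1 to 5. The ranges of the groups largely coincided, with the highest gland among the PBS and the lowest among the LPS libraries. Its means of 488 ± 55.2 FPKM in LPS glands and 495 ± 56.6 FPKM in PBS glands gave a log2 change of -0.02 (95% interval -0.26 to 0.22, limma adjusted p = 0.960).

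The exopeptidases cathepsins Z, H and A trim protein ends. Ctsz (ENSMUSG00000016256, chromosome 2, 174427493 to 174439039, minus strand), a carboxypeptidase abundant in myeloid cells, was at 266, 319.7, 267, 276 and 313 FPKM in LPS replicates 1 to 5, against 219, 236, 294, 217 and 300.3 FPKM in PBS replicates 1 to 5. PBS replicates 1, 2 and 4 lay below every LPS gland and PBS replicates 3 and 5 within the LPS range. The log2 change was 0.20 ± 0.12 (95% interval -0.06 to 0.45, limma adjusted p = 0.446). Ctsz kept a positive log2 change under each of 22 other ways of processing, between 0.02 and 0.26, without passing the threshold.

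Ctsh (ENSMUSG00000032359, chromosome 9, 90054152 to 90076089, plus strand) encodes an aminopeptidase and was at 34.7, 29.8, 36.2, 29.1 and 27.8 FPKM in LPS replicates 1 to 5, against 26.9, 32.7, 29.3, 29.3 and 22.5 FPKM in PBS replicates 1 to 5. The groups overlapped, with a log2 change of 0.16 ± 0.11 (95% interval -0.08 to 0.40, limma adjusted p = 0.529). Ctsa (ENSMUSG00000017760, chromosome 2, 164832873 to 164841032, plus strand), whose product is a carboxypeptidase and also shields neuraminidase 1 and beta-galactosidase in the lysosome, was at 64.6, 72.0, 53.9, 72.0 and 53.0 FPKM in LPS replicates 1 to 5, against 53.7, 51.1, 67.7, 54.1 and 61.2 FPKM in PBS replicates 1 to 5. These groups overlapped as well (log2 change 0.13 ± 0.12, 95% interval -0.12 to 0.38, limma adjusted p = 0.667). Of the partners of cathepsin A, Neu1 was at 35.3 ± 5.17 FPKM in LPS glands and 35.5 ± 1.30 FPKM in PBS glands, and Glb1 was at 13.1 ± 2.73 FPKM in LPS glands and 14.8 ± 1.43 FPKM in PBS glands.

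Legumain activates other lysosomal proteases and processes antigens. Lgmn (ENSMUSG00000021190, chromosome 12, 102394084 to 102439813, minus strand) was at 44.2, 36.4, 37.7, 33.7 and 37.5 FPKM in LPS replicates 1 to 5, against 39.5, 32.5, 40.4, 37.2 and 36.2 FPKM in PBS replicates 1 to 5. It was the steadiest member, with a coefficient of variation of 8.90% over the 10 libraries. The log2 change was 0.03 ± 0.09, and the 95% interval of -0.17 to 0.22 covers ratios of FPKM + 1 from 0.887 to 1.17 (limma adjusted p = 0.937).

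**Figure D3:**
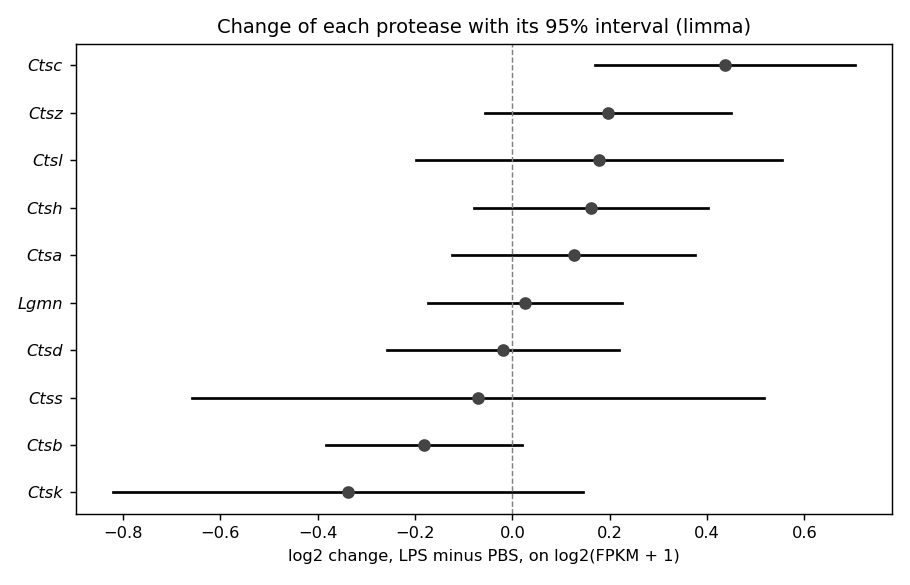
Log2 change of each protease gene, LPS minus PBS on log2(FPKM + 1), with its 95% interval from limma. Genes run down the page by their change. The interval of Ctsc, 0.17 to 0.70, lies above 0 without adjustment for the number of genes tested, and those of the other 9 genes include 0.

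Cathepsin S degrades the invariant chain of MHC class II in antigen-presenting cells. Cathepsin K is the collagen-degrading enzyme of osteoclasts that macrophages and fibroblasts also make. Their genes varied most among the 10 members, with coefficients of variation over the 10 libraries of 36.4% for Ctss and 34.9% for Ctsk. Ctss (ENSMUSG00000038642, chromosome 3, 95526786 to 95556403, plus strand) was at 17.2, 20.7, 27.1, 17.1 and 11.8 FPKM in LPS replicates 1 to 5, against 16.7, 32.4, 14.8, 27.7 and 11.2 FPKM in PBS replicates 1 to 5. PBS replicates 2 and 4 and LPS replicate 3 were the highest, and replicate 5 was the lowest in each group. The log2 change was -0.07 ± 0.27 (95% interval -0.66 to 0.52, limma adjusted p = 0.942).

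Ctsk (ENSMUSG00000028111, chromosome 3, 95499256 to 95509362, plus strand), the neighbour of Ctss on the chromosome, was at 5.51, 5.88, 6.63, 6.21 and 4.18 FPKM in LPS replicates 1 to 5, against 7.69, 11.4, 6.82, 9.69 and 3.58 FPKM in PBS replicates 1 to 5. Apart from PBS replicate 5, the lowest of the 10 libraries, every PBS gland was above every LPS gland. Ctsk averaged 5.68 ± 0.937 FPKM in LPS glands and 7.83 ± 2.96 FPKM in PBS glands (log2 change -0.34 ± 0.22, 95% interval -0.82 to 0.15, limma adjusted p = 0.505). On recovered reads the log2 change of Ctsk was -0.51 with both edgeR (adjusted p = 0.227) and DESeq2 (adjusted p = 0.161). Its 85 to 284 reads per library were the fewest of the members, and counting alone gives a coefficient of variation of 10.8% at the lowest of these counts, beside 34.9% observed over the 10 libraries.

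The libraries with the most Ctss, PBS replicates 2 and 4 and LPS replicate 3, were also among the 4 libraries richest in B and T cell markers. PBS replicates 2 and 4 were the highest in Ctsk too, while LPS replicate 3 was near the median of Ctsk (6.63 FPKM). PBS replicate 1, next in Ctsk (7.69 FPKM), was not among the libraries richest in B and T cell markers. Cd74, the gene of the invariant chain that cathepsin S degrades, had 109 FPKM in LPS replicate 3 and 56.2 to 73.4 FPKM in the remaining LPS glands, against 174 FPKM in PBS replicate 2, 134 FPKM in PBS replicate 4 and 51.3 to 70.9 FPKM in the remaining PBS glands. Cd79a, a signalling chain of the antigen receptor of B cells, had 3.65 FPKM in LPS replicate 3 and 0.0430 to 1.40 FPKM in the remaining LPS glands, against 12.7 FPKM in PBS replicate 2, 6.41 FPKM in PBS replicate 4 and 0 to 0.190 FPKM in the remaining PBS glands. C1qa, a complement gene of macrophages, had 9.70 to 26.8 FPKM in LPS glands, lowest in replicate 5, against 47.0 FPKM in PBS replicate 2, 35.3 FPKM in PBS replicate 4 and 14.0 to 28.0 FPKM in the remaining PBS glands. The summed FPKM of the 9 macrophage markers was 36.3 to 83.4 in LPS glands and 46.3 to 132 in PBS glands, with 0 of 7 tested markers called by limma. The change was negative for 6 of the 7, with a median of -0.42 on the log2 scale. In LPS replicate 3 C1qa was at 19.3 FPKM and the summed macrophage markers at 66.5 FPKM. Both were below the values of LPS replicate 4 (26.8 and 83.4 FPKM). Csf1r, the receptor of the macrophage growth factor, was at 2.32 ± 0.338 FPKM in LPS glands and 3.64 ± 1.69 FPKM in PBS glands (adjusted p = 0.334 by limma and 0.0340 by DESeq2) and is in the authors' deposited table with a log2 fold change of -0.56. The summed FPKM of 6 fibroblast markers was 109 to 212 in LPS glands and 132 to 210.5 in PBS glands. None of the macrophage, B cell or T cell markers was at 0 in all libraries, and the part of these cells in the levels of Ctss and Ctsk was not tested. Without the 4 libraries richest in B and T cell markers the log2 change of Ctss was 0.10 and that of Ctsk -0.12.

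**Figure D4:**
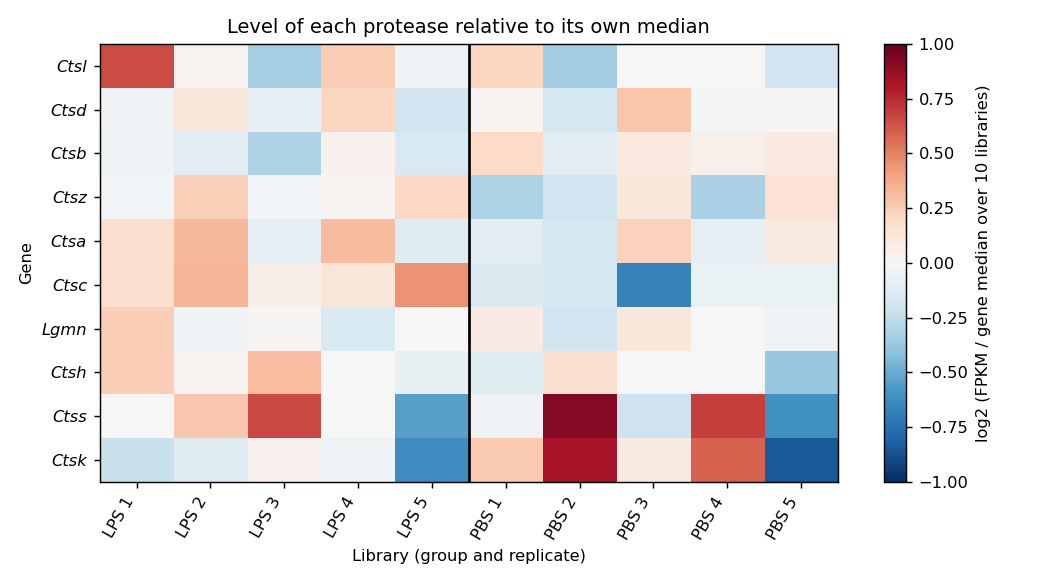
Level of each protease gene in each library as log2 of its FPKM over its own median in 10 libraries, LPS libraries on the left of the line and PBS libraries on the right. Red is above and blue below the median. Ctss and Ctsk share their high libraries (PBS replicates 2 and 4) and their low ones (replicate 5 of each group), and Ctsc is above its median in the LPS libraries and below it in the PBS libraries.

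The genes differed far more from one another than between the groups. Mean FPKM over the 10 libraries ran from 1259 for Ctsl through 491 for Ctsd, 301 for Ctsb, 271 for Ctsz, 60.3 for Ctsa, 43.9 for Ctsc, 37.5 for Lgmn, 29.8 for Ctsh and 19.7 for Ctss to 6.76 for Ctsk. Ctsl was above Ctsd, and Ctsd above Ctsb, in 10 of 10 libraries. Ctsb was above Ctsz in 7 of 10 libraries. These were every PBS gland and LPS replicates 1 and 4, while Ctsz was higher in LPS replicates 2, 3 and 5. Ctsc was above Lgmn in 8 of 10 libraries, among them every LPS gland, and below it in PBS replicates 1 and 3. Whether these orders differed between the groups was not tested. Ctsl made up 45.0 to 60.5% of the summed FPKM of the 10 genes and ranked between place 28 and place 36 of all genes in each library. The sum was 2614 ± 391 FPKM in LPS glands and 2426.5 ± 221.0 FPKM in PBS glands, 0.326 to 0.444% of all FPKM. The difference of 187 FPKM was 50.8 FPKM without LPS replicate 1, 105 FPKM without PBS replicate 2 and -137.8 FPKM after scaling to the sum outside milk proteins. The level of Ctsh depends on the length used for FPKM: that length, 2743 bases, equals the length of a retained-intron transcript, and with the 1617 bases of the main coding transcript its FPKM would be 1.70 times as high.

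Patterns were compared by the mean absolute difference of z-scored log2(FPKM + 1) over the 10 libraries, which is 0 for identical patterns. The tested genes outside the members were compared, leaving out predicted genes and pseudogenes. The genes most like Ctsc were Perp (0.291), Cxcl16 (0.292), Nedd9 (0.301), Slc6a14 (0.302) and Ccl20 (0.311), beside a median of 1.06 over the genes compared. For Ctsl the most alike were Fam114a2 (0.269), Ubb (0.285), Retreg3 (0.351), Slc30a6 (0.381) and Sh3bp5l (0.388), beside a median of 1.16. With 10 libraries and 11414 genes such closeness is a description of these libraries.

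The surrounding pathway asked whether the carriers, inhibitors, membrane proteins and pump that serve these enzymes moved. Of 97 tested genes in 11 lists, 2 rose and 2 fell, beside 2.63% and 0.605% of all genes tested, and their median log2 change was -0.02. The rises were an inhibitor and a carrier. Cstb, the gene of cystatin B, a cytosolic inhibitor of cathepsins, was at 680, 540.1, 565, 448 and 503 FPKM in LPS replicates 1 to 5, against 339.9, 356, 346, 318 and 325 FPKM in PBS replicates 1 to 5. The groups were separate, and Cstb rose with a log2 change of 0.69 ± 0.11 (limma adjusted p = 0.00803). M6pr, the cation-dependent mannose 6-phosphate receptor that carries lysosomal enzymes from the Golgi, was at 67.6, 70.5, 69.3, 64.5 and 67.0 FPKM in LPS replicates 1 to 5, against 54.2, 54.4, 48.5, 53.4 and 45.0 FPKM in PBS replicates 1 to 5. These groups were separate too, and M6pr rose with a log2 change of 0.40 ± 0.08 (limma adjusted p = 0.0179). The call of M6pr ended with quantile normalization (adjusted p = 0.0567), with scaling to the sum outside milk proteins (0.195) and without LPS replicate 2 (0.0537). The part of the epithelial genes that rose, Krt5 and Krt8, in the rises of Cstb and M6pr was not tested.

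Cystatin B also blocks cathepsin B. The ratio of the FPKM of Ctsb to that of Cstb was 0.436, 0.524, 0.435, 0.698 and 0.545 in LPS replicates 1 to 5, against 1.03, 0.796, 0.942, 0.994 and 1.005 in PBS replicates 1 to 5. The groups did not overlap in this ratio, which does not depend on library scaling. Nor did they overlap in the FPKM of Cstb alone, the denominator. They overlapped in the ratio of Ctsl to Cstb, at 1.70 to 3.22 in LPS glands and 2.68 to 4.14 in PBS glands. They also overlapped in the ratio of Ctsc to Cstb, at 0.0710 to 0.117 in LPS glands and 0.0781 to 0.129 in PBS glands. These pairs were chosen after values were seen, so no test was made. Cst3, the gene of the secreted inhibitor cystatin C, was at 347 ± 42.1 FPKM in LPS glands and 400.1 ± 65.5 FPKM in PBS glands.

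The falls were a cathepsin outside the 10 and a regulator. Ctse encodes cathepsin E, an aspartic protease of endosomes, and was at 1.97, 2.31, 2.34, 1.44 and 1.58 FPKM in LPS replicates 1 to 5, against 4.63, 4.60, 3.73, 4.33 and 2.17 FPKM in PBS replicates 1 to 5. PBS replicate 5 lay within the LPS range, and Ctse fell by 0.72 on the log2 scale (SE 0.17, limma adjusted p = 0.0348), a call that was lost in 8 of the 10 fits that left out a library (adjusted p up to 0.0997). Rragd, a Rag GTPase that links lysosomal amino acids to mTORC1, was at 2.40, 1.56, 2.32, 1.34 and 1.55 FPKM in LPS replicates 1 to 5, against 4.91, 4.10, 3.92, 3.22 and 4.19 FPKM in PBS replicates 1 to 5. Its groups were separate, and it fell by 0.85 on the log2 scale (SE 0.14, limma adjusted p = 0.00779). The authors' deposited table holds the same directions for these 4 genes, with log2 fold changes of 0.60 for Cstb, 0.34 for M6pr, -0.89 for Ctse and -1.03 for Rragd. Without the 4 libraries richest in B and T cell markers, which leaves 3 glands in each group, none of the 4 was called (adjusted p 0.0835 to 0.274), with log2 changes of 0.67, 0.43, -0.72 and -0.96 in that order.

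The other lysosomal genes gave no call by limma. Of 30 hydrolase genes 10 had a positive change and the median log2 change was -0.04; Psap, the precursor of the saposins that help to degrade sphingolipids, was at 277 ± 39.9 FPKM in LPS glands and 281 ± 37.5 FPKM in PBS glands, and Lipa, lysosomal acid lipase, at 222 ± 44.9 FPKM in LPS glands and 251 ± 28.8 FPKM in PBS glands. Of 14 membrane genes 8 had a positive change, with a median of 0.08. Lamp1, an abundant lysosomal membrane glycoprotein, was at 263 ± 20.1 FPKM in LPS glands and 217 ± 17.6 FPKM in PBS glands, and Cd63, a tetraspanin of late endosomes, at 190.5 ± 44.2 FPKM in LPS glands and 131 ± 11.6 FPKM in PBS glands. Of 16 genes of the proton pump that acidifies the lysosome 13 had a positive change, with a median of 0.13. The median over all genes tested was 0.05, and it was -0.10 after scaling to the sum outside milk proteins, so such counts depend on scaling. With edgeR the changes of Atp6v0b, Atp6v1d and Atp6ap2 turned negative (-0.0043, -0.0406 and -0.0627). Atp6v1g1 was at 151 ± 19.5 FPKM in LPS glands and 137 ± 8.43 FPKM in PBS glands, and Atp6v0b at 99.4 ± 14.6 FPKM in LPS glands and 95.7 ± 12.2 FPKM in PBS glands. Among other lysosomal peptidases, Tpp1 was at 20.2 ± 2.28 FPKM in LPS glands and 22.8 ± 3.53 FPKM in PBS glands, and Scpep1 at 13.2 ± 0.835 FPKM in LPS glands and 12.1 ± 2.86 FPKM in PBS glands. Tfeb, whose product drives lysosomal genes, was at 4.25 ± 0.987 FPKM in LPS glands and 4.36 ± 0.834 FPKM in PBS glands, and Stat3 at 103 ± 10.04 FPKM in LPS glands and 97.6 ± 9.89 FPKM in PBS glands. The 5 tested genes of the class II pathway had a median log2 change of -0.29, and 8 cathepsin genes known from the placenta were listed at 0 in every library. At an unadjusted p below 0.05, limma had 18 of the 97 genes, beside 16.5% of all genes tested. Among them Ctsf, a cysteine cathepsin, was at 4.80 ± 1.25 FPKM in LPS glands and 7.09 ± 0.464 FPKM in PBS glands (limma adjusted p = 0.0843). Ctsf appears in the authors' deposited table with a log2 fold change of -0.54. DESeq2 on recovered reads called 3 genes of these lists beyond the 4 called by limma, namely Ctsf (adjusted p = 0.0116), Cd63 (0.0202) and Dnase2a (0.00603), and edgeR called Dnase2a as well (0.0391). Over all genes tested DESeq2 called 7.41% and edgeR 3.83%, so these counts are to be read beside those shares. Dnase2a, the gene of an acid nuclease of lysosomes, was at 7.72 ± 0.718 FPKM in LPS glands and 9.54 ± 0.498 FPKM in PBS glands, with separate groups and a limma adjusted p of 0.106. The authors' deposited table lists Cd63 with a log2 fold change of 0.43 and Dnase2a with -0.34.

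**Figure D5:**
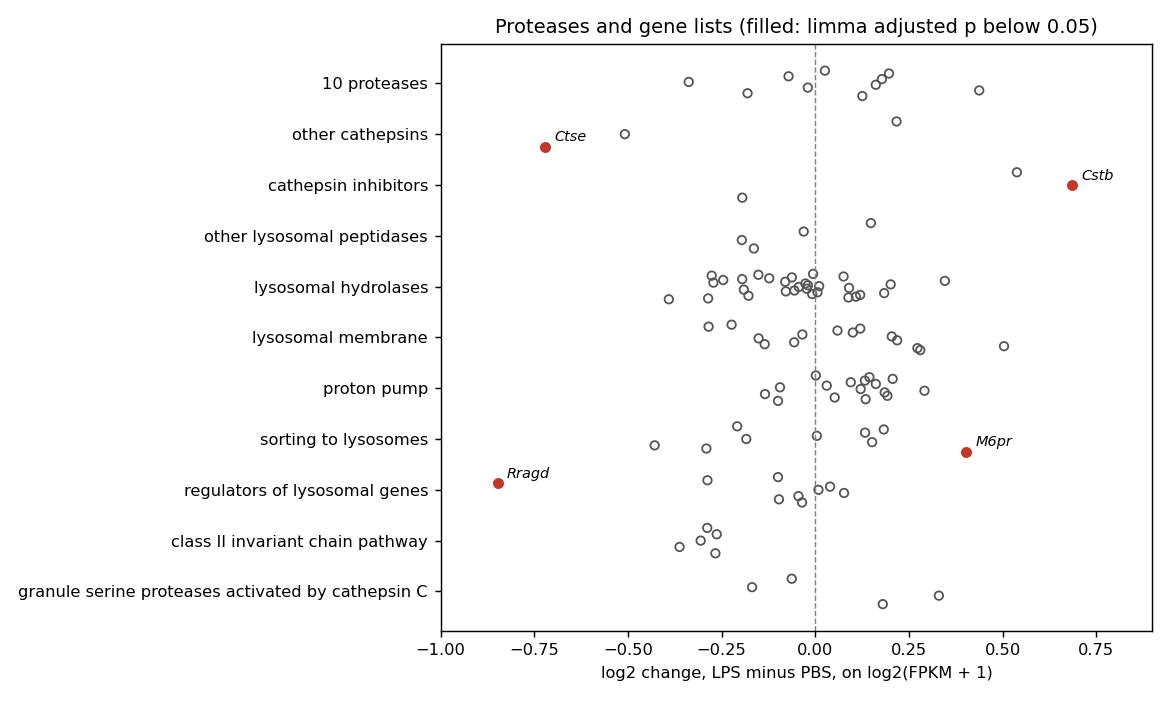
Log2 change, LPS minus PBS on log2(FPKM + 1), of the 10 protease genes (top row) and of the tested genes of each pathway list below it. Each point is a gene, and filled red points passed a limma adjusted p below 0.05. The filled points are Cstb (0.69), M6pr (0.40), Ctse (-0.72) and Rragd (-0.85), and the top row holds no filled point.

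Promoters of 8 of the 10 genes are in the RefSeq promoter table (build GRCm38.p6), as 10 windows, and are described because many lysosomal genes carry a CACGTG element to which TFEB binds. CACGTG, which reads the same on both strands, was in 4 of the 10 windows and in 7.15% of the 32851 windows of the table. The longer TCACGTGA, which contains it, was in 2 of the 10 and in 0.974% of all windows. The stretches around each CACGTG before the start used by RefSeq are shown 5′ to 3′ on the gene's strand, with CACGTG in capitals. They lie at chr7:142387903-142387942 and, farther from the start, chr7:142388050-142388077 for Ctsd on the minus strand, chr2:164833744-164833772 for Ctsa on the plus strand, chr13:64370734-64370770 for Ctsl on the minus strand and chr12:102439119-102439158 for Lgmn on the minus strand, where the start used by RefSeq matched no GENCODE M21 transcript of Lgmn. Apart from the farther stretch of Ctsd, these stretches lie within the gene spans given above, which begin farther upstream. Ctsa has a further CACGTG just after its RefSeq start, which is not shown.
Ctsd, nearer the start: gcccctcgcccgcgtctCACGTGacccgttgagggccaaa
Ctsd, farther from it: tccccCACGTGacctgtatccagtcatt
Ctsa: aacaatgagcaaactgtCACGTGatgcag
Ctsl: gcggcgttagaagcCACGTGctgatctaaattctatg
Lgmn: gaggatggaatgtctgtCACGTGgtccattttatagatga
The windows of Ctsc, Ctsk, Ctss and Ctsz held no CACGTG. TTCNNNGAA, the palindromic element of STAT factors, was in 1 of the 10 windows, that of Ctsc, and in 8.30% of all windows. That stretch lies at chr7:88277835-88277874 on the plus strand, with the element in capitals.
Ctsc: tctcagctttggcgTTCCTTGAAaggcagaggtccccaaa
The genes with CACGTG (Ctsd, Ctsa, Ctsl and Lgmn) had log2 changes of -0.02, 0.13, 0.18 and 0.03 in LPS glands, and those without it (Ctsc, Ctsk, Ctss and Ctsz) 0.44, -0.34, -0.07 and 0.20. A match describes the letters of the window and is not evidence that a factor binds there.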

How the data were processed

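RNA of 5 LPS and 5 PBS mammary glands was measured. The authors' table of FPKM per gene and their table of 908 changed genes were used; per the file headers the table of changed genes holds raw counts, a normalized signal per library, log2 fold changes and p-values deposited by the authors. Gene lengths behind FPKM were recovered from the FPKM values and equal those deposited for 906 of the 908 genes. Tools named in the submitters' processing notes are STAR 2.5, HTSeq 0.6.1 and DESeq2, listed as version 2, with build mm10; the annotation release and strand setting are not given in the sources used here, so reads of overlapping opposite-strand genes (Fdft1 with Ctsb, Pltp with Ctsa) cannot be told apart.

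Log2(FPKM + 1) was kept for 11414 genes reaching an FPKM of 1 in 5 or more libraries and was fitted with limma 3.58.1 (R 4.3.3, intensity trend, two-sided, group as the term); an adjusted p below 0.05 was a call. Fold changes on this scale understate those of low genes. Whole reads were recovered from FPKM (tolerance 0.002 reads; 99.98% of depth or more) for edgeR 4.0.16 and DESeq2 1.42.0. Procedures were tested on simulated data. Depth bears on counting error only; PCR copies cannot be told from molecules.

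Alternatives were pseudocounts of 0.1 and 5, no filter or a mean FPKM of at least 5, 3 scalings, the replicate number as a block, library weights, and leaving out libraries. All members were named; of each list, up to 4 called genes or else the 2 most abundant; for Ctsc and Ctsl, the 5 genes of most alike pattern; genes given besides these were chosen after their values were seen. The members and lists were chosen with earlier results of these data known. Positions and transcripts are from GENCODE M21 and promoters from RefSeq, both on GRCm38, which is mm10.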

Additional observations from a re-analysis of the deposited data

Results flagged for a closer look

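PBS replicate 3 stood apart in Ctsc. Its 26.98 FPKM was far below the 38.3 to 41.1 FPKM of the other 4 PBS glands, and this gap was 0.803 of the range of the PBS group, above Dixon's 95% critical value for 5 samples. It was the only flag among 22 groups examined (10 genes and their sum, in LPS and in PBS glands), where chance gives about 1 in 20. The same library had the highest Ctsd of all (585 FPKM) and the lowest Cxcr2 (0.291 FPKM). Without it the log2 change of Ctsc was 0.33 (limma adjusted p = 0.0992) and every LPS gland was still above every PBS gland.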

How the results depend on the processing

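Under 22 alternatives 0 members were called, except that with the replicate number as a block 1 was called higher, Ctsc (adjusted p = 0.0144, against 0.0790 without the block and 0.0144 to 0.366 over its alternatives). Whether the numbers pair glands is not stated; deviations of same-numbered libraries correlated by 0.482, 0.362, 0.0993, 0.103 and 0.494 for numbers 1 to 5, and 3 of the 5 LPS libraries correlated best with the PBS library of their own number. With the block 5 pathway genes were called higher and 4 lower, and over all genes 962 and 267, against 300 and 69 without it. Signs turned, with no call, under scaling to the sum outside milk proteins for Ctsa (-0.0527), Ctsh (-0.0138), Ctsl (-0.0035) and Lgmn (-0.15), under quantile normalization for Ctsl (-0.13) and Lgmn (-0.10), for Lgmn also with median-of-ratios scaling (-0.0406), library weights (-0.0263), edgeR (-0.0402), DESeq2 (-0.0418) and without the 4 libraries richest in B and T cell markers (-0.0157), for Ctss without these 4 (0.0984) and for Ctsd with library weights (0.0055). Leaving out 1 library gave -0.0732 to 0.0425 for Ctsd, -0.25 to 0.11 for Ctss and -0.0301 to 0.0656 for Lgmn. The summed FPKM, 187 higher in LPS glands, was -137.8 under scaling to the sum outside milk proteins. Pathway genes called higher numbered 1 with quantile normalization and 1 with scaling outside milk proteins, 0 without the 4 libraries and 1 to 3 with 1 library left out. Those called lower numbered 1 without a filter, 0 with a mean FPKM of at least 5, 6 with scaling outside milk proteins, 4 with DESeq2, 0 without the 4 libraries and 1 to 3 with 1 library left out. The filter at a mean FPKM of 5 removes Ctse (mean 2.91) and Rragd (mean 2.95), so their falls were not tested under it. Over all genes, calls higher and lower numbered 101 and 25 without a filter, 132 and 239 with scaling outside milk proteins, 534 and 122 with library weights, 546 and 300 with DESeq2, and 8 and 0 without the 4 libraries, which leaves 6 glands; falls numbered 115 with median-of-ratios scaling, 145 with quantile normalization and 132 with edgeR. With 1 library left out they ranged from 121 to 429 and from 27 to 88. The cause of these shifts was not tested. Counting error at the fewest reads was 10.8% for Ctsk and at most 6.42% for the other 9 genes.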
